A study of Mus musculus with 140 samples.

Results

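The genes described here are 39 mouse genes of the actin cytoskeleton, among them known targets of the transcription factor SRF and SRF itself, followed over days in embryonic stem (ES) cells that were losing single regulators of self-renewal. For each gene the brightest probe set on average was used, out of those that name that gene and no other on either of 2 Affymetrix arrays, MOE430A and MOE430B. All 39 had such a probe set, out of 18193 genes that had one, and 38 passed a filter on dim probe sets, out of 14558 genes that passed. Villin, Vil1, an actin bundler of brush borders, was the member that did not pass, with signals of 6.70 to 58.7 in Tbx3 shRNA cells and 16.6 to 81.8 in empty vector cells on days 4, 5 and 6. Signals are MAS5 signals on a linear scale, and they are compared only within a probe set.

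The cells were CCE cells, a male mouse ES cell line of the 129/Sv strain. In 7 of the 9 courses cells were transduced with a vector that carries a GFP marker and a short hairpin RNA (shRNA) against Nanog, Oct4 (gene Pou5f1), Sox2, Esrrb, Tbx3, Tcl1 or Mm343880, a transcript named only by a cluster number. The RA course received retinoic acid (RA) at 5 µM without LIF, the cytokine that holds mouse ES cells in self-renewal, and its labels describe no transduction. The last course received the empty H1P vector and is the reference. LIF was present at 1000 units per ml in every transduced culture, and GFP-positive cells were sorted each day, with day 0 set at 48 hours after transduction. There were 8 daily samples per course, days 0 to 7, and 7 in the Mm343880 and RA courses, which end on day 6, giving 70 samples on 140 arrays. The courses were made with 1 sample a day and no repeat transduction, so a p-value here measures the spread of daily samples around a smooth curve, which may be technical, and a difference between cultures cannot be told apart from the effect of an shRNA. The RA and empty vector courses also differ in LIF, in transduction and in the GFP sorting that goes with it. The parts of these cannot be told apart from that of RA.

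Actin monomers polymerise into filaments that tropomyosins and calponins coat, myosin II pulls on, filamin and alpha-actinin cross-link, and talin, vinculin and zyxin tie to integrins at adhesions. Profilin and thymosin beta hold the pool of free monomer, while cofilin and gelsolin cut filaments. As monomer is used up, the cofactors Mrtfa and Mrtfb are released, enter the nucleus and join SRF on a short promoter element, the CArG box, which many genes of this machinery carry, so that filament assembly feeds back on the supply of its own parts.

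The promoter sequences below are shown because they hold that box in members whose signals are followed through the courses. The box was taken as CC, 6 bases that are A or T, and GG, and it was searched on both strands in windows of 250 bases before to 50 bases after each RefSeq start (build GRCm38.p6). Capitals mark the box, and sequences run 5′ to 3′ on the gene's own strand.
Cnn2 (chr10:79988509-79988588, plus strand): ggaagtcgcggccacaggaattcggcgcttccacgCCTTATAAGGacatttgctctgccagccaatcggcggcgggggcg
Myl9 (chr2:156775268-156775347, plus strand): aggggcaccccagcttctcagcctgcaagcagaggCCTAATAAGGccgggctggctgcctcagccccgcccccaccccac
Vcl (chr14:20929148-20929215, plus strand): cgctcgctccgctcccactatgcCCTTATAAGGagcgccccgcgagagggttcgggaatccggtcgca
Actg1 (chr11:120348541-120348620, minus strand): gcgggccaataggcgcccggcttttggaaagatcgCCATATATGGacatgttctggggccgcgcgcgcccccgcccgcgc
Fhl2 (chr1:43163962-43164027, minus strand): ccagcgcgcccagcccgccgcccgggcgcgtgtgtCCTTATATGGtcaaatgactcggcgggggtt
Fhl1 (chrX:56779546-56779625, plus strand): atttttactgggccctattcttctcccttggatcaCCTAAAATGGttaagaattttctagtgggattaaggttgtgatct
Srf (chr17:46556180-46556279, minus strand): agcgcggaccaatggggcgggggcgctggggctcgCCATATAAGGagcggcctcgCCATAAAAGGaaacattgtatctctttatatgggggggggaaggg
The first base of the box lay 56 bases before the start in Cnn2, 161 in Myl9, 227 in Vcl, 90 in Actg1, 31 in Fhl2 and 102 in Fhl1. Srf itself held 2 boxes, 82 and 62 bases before its start. Of the 38 members with a window in the table, which include Vil1 and leave out Actb, 9 held at least 1 box (23.7%), against 488 of 27025 genes (1.81%). Beside the 7 shown, these were Myl6 and Vil1, and a second start of Fhl2 held a box as well. The members include known SRF targets and Srf, so a share above that of all genes follows in part from the choice of genes. A match is a run of letters and was not tested as a bound site.

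Array medians over the 9 courses were 236 to 383 on MOE430A and 64.5 to 128 on MOE430B. The RA course held the highest medians, with 265 to 383 and 97.2 to 128, against 244 to 331 and 80.9 to 106 in the empty vector course. In the 6 knockdown courses whose target has a gene symbol, signals of the targeted gene were below those of the day-matched empty vector sample on 8 of 8 days, by 3.40-fold (Tcl1) to 10.2-fold (Esrrb), with an exact two-sided sign-flip p of 0.00781 each. The target of the Mm343880 course was not checked. The 9 pluripotent stem cell markers (such as Zfp42 and Esrrb) summed to 1089 to 1642 in RA cells on days 4 to 6 and to 61998 to 69461 in empty vector cells. The labelled cell type thus had its markers in the empty vector course.

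Actin cytoskeleton genes were called higher more often than genes at large in each of the 8 late comparisons, where the late difference is the mean log2 difference from the empty vector over days 4, 5 and 6 in a limma fit of 1 smooth curve per course over all 14558 genes. A call is an adjusted p under 0.05, and the 8 comparisons share the empty vector samples. The members were chosen with earlier results of these data known, so the excess over all genes is a description and not an independent test. Of 38 members, 26 rose and 1 fell in the Sox2 course, where 12.2% of all genes were called higher and 12.3% lower. In the Esrrb course 27 rose and none fell, against 7.49% and 5.33% of all genes. In the Mm343880 course 24 rose and none fell, against 7.81% and 7.36%. In the Nanog course 19 rose and 2 fell, against 12.2% and 10.2%. The Oct4 course had 17 that rose and none that fell, against 6.72% and 10.8% of all genes. The Tbx3 course had 17 that rose and 1 that fell, against 6.48% and 5.75%. The Tcl1 course had 17 that rose and none that fell, against 5.12% and 4.11%. RA moved the most genes of any kind, with 23 members higher and 9 lower, against 27.6% and 23.6% of all genes; the share of members called lower there, 23.7%, was at the background.

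The median late difference of the 38 members was 1.04 on the log2 scale in RA cells, 0.77 in Sox2, 0.73 in Esrrb, 0.62 in Mm343880, 0.45 in Nanog, 0.43 in Tcl1, 0.40 in Tbx3 and 0.33 in Oct4 shRNA cells. The same median over all genes lay between -0.10 and 0.04. Some of these counts moved when a day was left out of all courses. Without day 5, 10 members passed in the Tbx3 course and 15 in the Mm343880 course, and without day 6, 19 passed in the RA course. A day left out is still read from the fitted curve. The RA and Mm343880 courses end on day 6, so without it their curves are extended past their last sample. A call lost there does not show that it rested on day 6. For a single member, the day named below as ending a call is often not the only day that did. In bulk samples such as these, fewer cells of a type and less RNA per cell cannot be told apart.

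**Figure D1:**
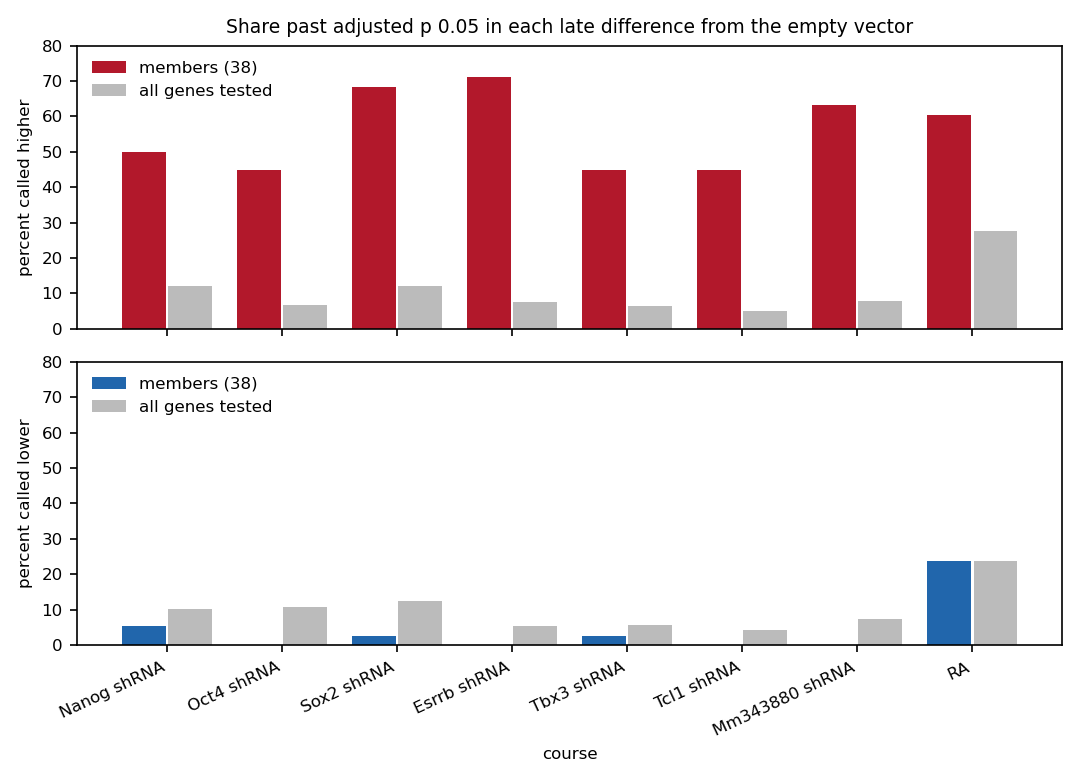
Percent of the 38 members and of all 14558 genes tested that passed an adjusted p of 0.05 in each late difference from the empty vector, higher in the upper panel and lower in the lower panel. The members were chosen with earlier results of these data known. The members' bar for higher stands above the bar for all genes in each course, from 44.7% in the Oct4, Tbx3 and Tcl1 courses to 71.1% in the Esrrb course, while the lower bars in RA are near each other at 23.7% and 23.6%.

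Markers of other cell types moved in the same days. Their sums add probe sets on the linear scale, so the brightest genes weigh most. Among the trophectoderm markers these were Krt18 (up to 38930) and Krt8 (up to 26617), while Cdx2 reached 2426. Of 9 trophectoderm markers tested, 9 were higher in the Nanog and Oct4 courses, 8 in Sox2, 6 in Esrrb and Mm343880, and 5 in Tbx3, Tcl1 and RA, while 3 were lower in RA and 1 in Mm343880. The summed signal of all 10 listed on days 4 to 6 was 40659 to 91603 in Nanog shRNA cells, 57228 to 73823 in Sox2 shRNA cells, 55405 to 67864 in Oct4 shRNA cells, between 7568 and 52417 in the other knockdown courses, 12471 to 22423 in RA cells and 4608 to 7748 in empty vector cells. Of 10 fibroblast markers tested, 9 were higher in RA cells, 5 each in the Sox2 and Esrrb courses, 4 in Tbx3, 2 in Mm343880 and 1 in Tcl1, with none higher in the Nanog and Oct4 courses, and 1 was lower in each course but Mm343880. The fibroblast sum, over all 12 listed, was 20003 to 30103 in RA cells, 5546 to 6489 in Esrrb shRNA cells, 2990 to 7528 in Tbx3 shRNA cells, 3259 to 5724 in Sox2 shRNA cells, between 1946 and 3721 in the other knockdown courses and 2310 to 2376 in empty vector cells, where Col1a1 (mean late signal 12.4), Postn (27.3) and Twist1 (13.2) were near 0. Of 9 parietal and primitive endoderm markers, 6 were higher in RA cells, 5 in Nanog, 3 each in Sox2 and Mm343880, 2 each in Oct4 and Tcl1 and 1 each in Esrrb and Tbx3, while 2 were lower in Esrrb and 1 each in Oct4, Sox2 and Tbx3. Their sum was 34655 to 46095 in RA cells, 15226 to 20434 in Sox2 shRNA cells, 13905 to 19829 in Nanog shRNA cells, between 8684 and 17711 in the other knockdown courses and 6399 to 8363 in empty vector cells. The part of these cell types in the results below was not tested. Of 3 blood cell markers tested, at most 1 passed in any course.

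The members parted from the empty vector over several days, in some courses in steps. On day 0 their median difference from the empty vector sample of the same day was -0.19 in the Nanog course, 0.14 in Sox2, 0.10 in Esrrb, -0.02 in Mm343880 and 0.17 in RA. It reached 0.70 on day 2 and 0.83 on day 3 in the Sox2 course. In the Esrrb course it was 0.72 on day 3 and 0.88 on day 5, in the Mm343880 course 0.39 on day 4 and 0.83 on day 5, and in the Nanog course 0.39 on day 4 and 0.69 on day 7. The Tbx3 median was 0.34 on day 3, 0.16 on day 4 and 0.49 on day 5. The Oct4 median was highest on day 6 (0.41) and the Tcl1 median on day 5 (0.53). RA cells had the steepest course, with 0.20 on day 1, 1.17 on day 3 and 0.61 on day 6. The median over all genes stayed between -0.20 and 0.20 on each day of each course.

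**Figure D2:**
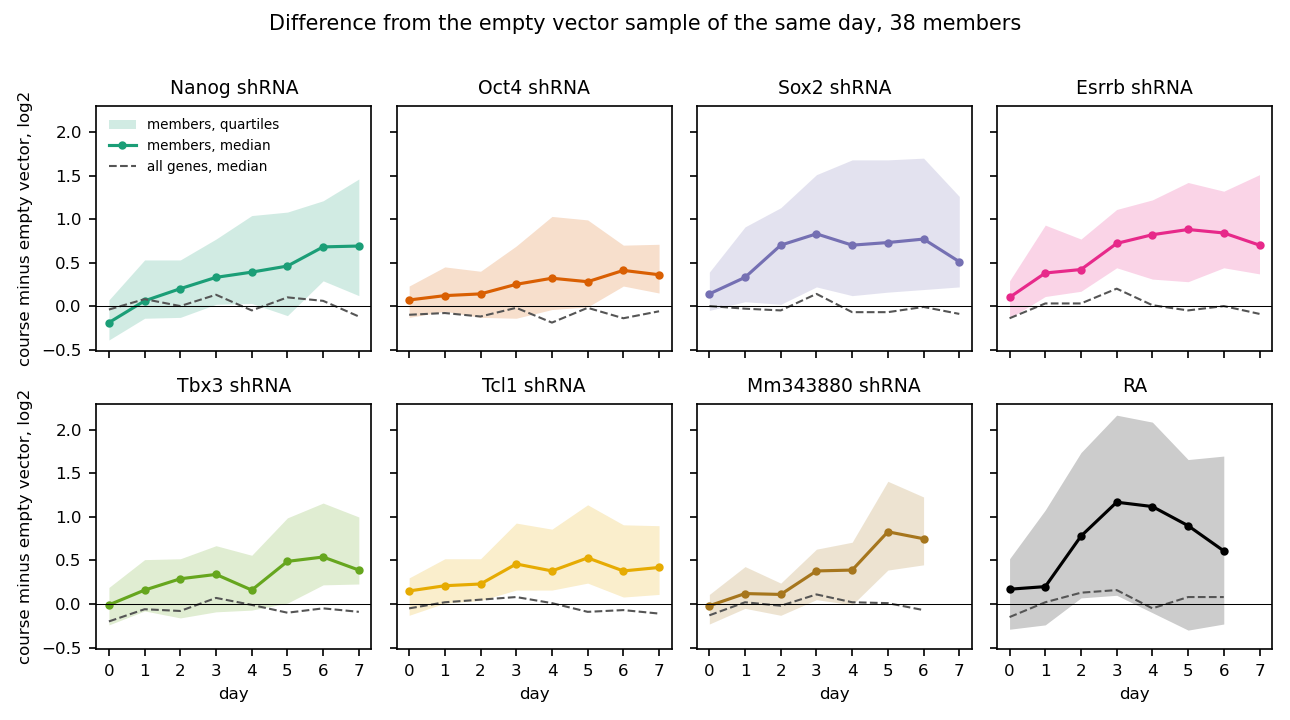
Log2 difference from the empty vector sample of the same day for the 38 members in each of the 8 courses: solid line, median; band, quartiles; dashed grey line, median of all genes tested. The members' median is near 0 on day 0 (from -0.19 in Nanog to 0.17 in RA), climbs to 0.83 on day 3 in the Sox2 course and to 0.88 on day 5 in the Esrrb course, and in RA peaks at 1.17 on day 3.

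Counted member by member, 18 stood at least 2-fold above the empty vector by some day and stayed so through day 6 in the Sox2 course, with a median first day of 2. RA cells had 17 such members, also with a median of day 2. The Esrrb course had 14 (day 3.5), the Nanog course 13 (day 5), the Tcl1 course 8 (day 3) and the Oct4 course 6 (day 1.5). In the Tbx3 and Mm343880 courses 13 members did so, with a median of day 5, and 6 and 7 of them did so from day 5 itself. The difference between day 4 and day 5 in those 2 courses recurs in single members below. For 6 of the Nanog members and 5 of the Sox2 members the first day was day 6, so 1 sample decides there. These counts describe single daily samples and carry no test, and the share of all genes that meets the same rule was not counted.

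Within a course, days 4 to 6 were also set against days 0 and 1, a comparison that uses no empty vector sample. In the empty vector course itself no member of 38 passed, while 0.543% of all genes were higher and 0.275% lower. In the other courses 21 rose in Esrrb (5.09% of all genes higher and 1.63% lower), 20 in Mm343880 (5.69% and 3.62%), 19 in Nanog (6.37% and 4.57%), 17 in Sox2 (4.52% and 3.19%), 12 in Oct4 (4.34% and 4.10%), 11 in Tbx3 (3.76% and 1.06%) and 11 in Tcl1 (1.72% and 0.584%). RA cells had 19 that rose and 6 that fell, against 18.7% and 14.9%. Besides the RA falls, Vim fell in the Nanog course (log2 change -0.89) and Actn4 in the Tbx3 course (-0.47), and no other member fell in a knockdown course. The Vim call was lost without day 0 (adjusted p = 0.48), and the Actn4 call without day 1, 2, 4 or 6 (adjusted p of 0.053 to 0.28). These counts moved when a day was left out. Without day 0 the early mean was still read from the curves at days 0 and 1, so each curve was extended back before its first sample. A call lost there does not show that it rested on the day 0 sample. The members that then passed in either direction numbered 7 in Nanog, 2 in Oct4, 9 in Sox2, 10 in Esrrb, 3 in Tbx3, 3 in Tcl1 and 9 in Mm343880. RA had 8 without day 6, Tbx3 had 7 without day 2 or day 5, and Tcl1 had 6 to 7 without day 1, 2, 5 or 6. The empty vector course had 2 without day 5.

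The 2 cytoplasmic actins, the monomers that build the filaments, behaved unequally. Actg1, gamma actin, had signals of 32464, 27791 and 30899 in Esrrb shRNA cells on days 4, 5 and 6, against 18451, 20126 and 21907 in empty vector cells; 3 values in a row have this order of days throughout. The Esrrb samples all lay above the empty vector samples (log2 0.62, SE 0.09, adjusted p = 3.9e-06). In Mm343880 shRNA cells Actg1 was 33523, 37450 and 42049, the highest of the courses, 1.90-fold above the empty vector and without overlap (log2 0.92, SE 0.10, adjusted p = 2.1e-09). It passed in the other 5 knockdown courses with log2 differences of 0.34 (Oct4) to 0.53 (Nanog), and in RA cells the difference was 0.18 (adjusted p = 0.11). The Oct4 and Sox2 calls were lost without day 5 (log2 0.34, adjusted p = 0.088 and log2 0.33, adjusted p = 0.09).

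Actb, beta actin, reached 60668, 52299 and 68011 in Mm343880 shRNA cells, above the 34322, 33061 and 39409 of empty vector cells (log2 0.79, SE 0.12, adjusted p = 5e-06). Without day 6 that difference was log2 0.37, adjusted p = 0.39, in a fit that extends the Mm343880 curve past its last sample. The Mm343880 samples of days 4 and 5 were themselves above all 3 empty vector samples. The log2 ratio of the 3′ to the 5′ Actb control probe sets, a sign of RNA integrity, was 0.13 to 0.28 on the late MOE430A arrays of that course and 0.09 to 0.17 in the empty vector course, and its part in the Actb value was not tested. In RA cells Actb was 29553, 24219 and 24067, below the empty vector samples (log2 -0.46, adjusted p = 0.001), but the sign turned to 0.21 under quantile normalization, which shifted the median of all genes in RA to -0.22, and a dimmer Actb probe set passed higher (0.42). In the other knockdown courses the Actb difference was between -0.10 (Oct4) and 0.33 (Tcl1), with none past the threshold.

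Tropomyosins, which wrap filaments and set which myosins and cutters may reach them, held some of the largest rises. Tpm1 had 8421, 11942 and 9635 in Esrrb shRNA cells, against 981, 1206 and 1260 in empty vector cells, an 8.33-fold rise without overlap (log2 3.06, SE 0.35, adjusted p = 1e-08). Sox2 shRNA cells stood at 7231, 7677 and 7936 (log2 2.67, SE 0.35, adjusted p = 7.9e-08) and Nanog shRNA cells at 4939, 4155 and 5785 (log2 2.0, SE 0.35, adjusted p = 2.8e-05). Tcl1 shRNA cells had 3590, 6648 and 4670 (log2 2.08, SE 0.35, adjusted p = 6.1e-05). All samples of these courses exceeded every empty vector sample.

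Tpm1 in Mm343880 shRNA cells was 1446, 8418 and 6180, so its day 4 sample lay near the empty vector and the next 2 far above it (log2 1.87, SE 0.35, adjusted p = 0.00017). Tbx3 shRNA cells had a like sequence, 984, 3620 and 5028, whose day 4 value overlapped the empty vector (log2 1.15, SE 0.35, adjusted p = 0.024). Without day 5 the Tpm1 difference was log2 1.26, adjusted p = 0.1 in Mm343880 and log2 0.87, adjusted p = 0.34 in Tbx3 shRNA cells. The Tbx3 call was also lost without day 3 or day 6. RA cells peaked at 11681 on day 3 and stood at 9920, 6824 and 5339 later (log2 2.61, SE 0.35, adjusted p = 2.8e-08). Oct4 shRNA cells, at 3547, 2518 and 2314, had the second smallest rise (log2 1.20, SE 0.35, adjusted p = 0.012), which without day 4 was log2 0.90, adjusted p = 0.1.

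Tpm4, a short tropomyosin of non-muscle cells, was 4641, 9002 and 11559 in Nanog shRNA cells, against 2221, 1858 and 1741 in empty vector cells (log2 2.01, SE 0.19, adjusted p = 6.6e-11). All 3 Nanog samples were above the empty vector samples, the day 4 sample being the lowest of them. RA cells had 9953, 8469 and 6945 (log2 2.06, SE 0.19, adjusted p = 2.8e-12), and the remaining courses had log2 differences of 1.10 (Tbx3) to 1.89 (Sox2), all passing; the Tbx3 one was log2 0.91, adjusted p = 0.054 without day 5. Tpm2, a muscle-type tropomyosin, was 7514, 6520 and 4809 in Sox2 shRNA cells and 2502, 6097 and 8192 in Mm343880 shRNA cells, against 1324, 1402 and 1285 in empty vector cells (log2 2.19, SE 0.25, adjusted p = 3.5e-09 and log2 1.84, SE 0.25, adjusted p = 1.1e-06). It also rose in the Nanog, Esrrb, Tcl1 and RA courses (log2 1.36, 1.5, 1.15 and 1.61), and in Oct4 and Tbx3 shRNA cells it was 1589, 1870 and 1674 and 2007, 1621 and 1548, with adjusted p of 0.44 and 0.52. Without day 5 the Tcl1 call was lost (log2 0.96, adjusted p = 0.12), without day 6 the RA call (log2 1.34, adjusted p = 0.052), and a dimmer Tpm2 probe set passed lower in RA (log2 -0.55, adjusted p = 0.02).

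Tpm3, the fourth tropomyosin, differed little: 9097, 10383 and 10894 in Tcl1 shRNA cells, against 6332, 7193 and 5471 in empty vector cells (log2 0.65, SE 0.09, adjusted p = 2.4e-06). It passed also in the Esrrb, Mm343880 and Nanog courses (log2 0.59, 0.59 and 0.30), the Nanog one being lost without day 6 (log2 0.26, adjusted p = 0.061), and in the Sox2 course it was 0.03 (adjusted p = 0.88). The largest knockdown rises of the 4 tropomyosins on the log2 scale were thus 3.06 for Tpm1 (Esrrb), 2.19 for Tpm2 (Sox2), 2.01 for Tpm4 (Nanog) and 0.65 for Tpm3 (Tcl1).

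Cald1, caldesmon, which binds tropomyosin-coated filaments and restrains myosin, had the largest late rise of all members in the RA course. Its signals were 7428, 8324 and 8980 in RA cells, against 372, 478 and 292 in empty vector cells, 18.9-fold on the log2(signal + offset) scale (log2 4.24, SE 0.30, adjusted p = 8e-16). Sox2 shRNA cells had 3819, 5348 and 6052 (log2 3.46, SE 0.30, adjusted p = 3e-12) and Nanog shRNA cells 2227, 3144 and 4940 (log2 2.88, SE 0.30, adjusted p = 6.3e-10). No sample of either overlapped the empty vector samples.

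The other courses stood lower for Cald1. Oct4 shRNA cells had 2671, 2532 and 2401 (log2 2.54, SE 0.30, adjusted p = 1.2e-08), Esrrb shRNA cells 2257, 3471 and 2246 (log2 2.57, SE 0.30, adjusted p = 1.6e-08) and Tcl1 shRNA cells 1638, 2458 and 1864 (log2 2.25, SE 0.30, adjusted p = 1.3e-06). Mm343880 shRNA cells had 853, 3761 and 2301 (log2 2.30, SE 0.30, adjusted p = 4.8e-07) and Tbx3 shRNA cells 608, 2429 and 1971 (log2 1.74, SE 0.30, adjusted p = 5.8e-05), again with the day 4 sample closest to the empty vector. The empty vector course itself started high, at 1147 on day 0 against 313 on day 1, so that the first day of the other courses, 612 to 1718 for the knockdowns, did not stand clear of it.

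Calponins stabilise filaments. Cnn2 had signals of 7756, 9378 and 8766 in Esrrb shRNA cells, 5593, 9545 and 10545 in Mm343880 shRNA cells and 5182, 6851 and 7233 in Tbx3 shRNA cells, against 1829, 2272 and 1836 in empty vector cells. The log2 differences were 2.09 (SE 0.19, adjusted p = 7.4e-11), 2.04 (SE 0.20, adjusted p = 5.5e-10) and 1.62 (SE 0.19, adjusted p = 9.4e-08), with no overlap in any of them. Cnn2 was also among the members already high early: over days 0 and 1 it was 1.32 above the empty vector in Tcl1, 1.26 in Esrrb and 1.10 in Tbx3 shRNA cells on the log2 scale, all passing.

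Cnn2 rose in the Tcl1, Sox2, Nanog and Oct4 courses too (log2 1.87, 1.88, 1.42 and 1.02). In RA cells it peaked at 9453 on day 3 and then stood at 5512, 4022 and 3127 (log2 1.08, SE 0.20, adjusted p = 8.6e-06), a call lost without day 6 (log2 0.48, adjusted p = 0.46). Its paralog Cnn3 moved little, with 13675, 12445 and 13808 in RA cells and 13450, 12239 and 12161 in Esrrb shRNA cells, against 9221, 8683 and 10653 in empty vector cells (log2 0.52, SE 0.09, adjusted p = 2.1e-06 and log2 0.42, SE 0.09, adjusted p = 0.00049). In the 6 other knockdown courses its difference was between -0.08 (Nanog) and 0.18 (Tbx3), below the threshold; the RA call was lost without day 6 (log2 0.36, adjusted p = 0.11).

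**Figure D3:**
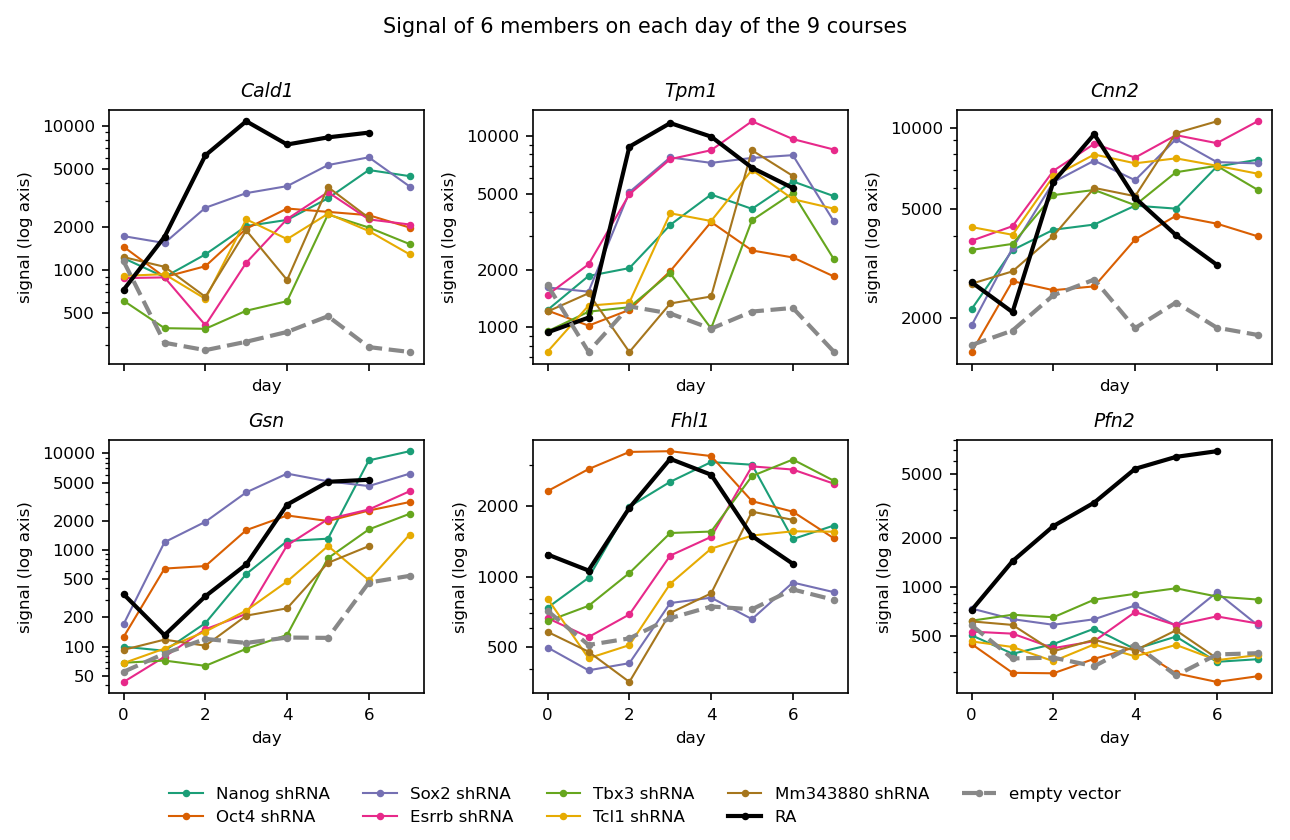
Signal (log axis) of Cald1, Tpm1, Cnn2, Gsn, Fhl1 and Pfn2 on each day in the 9 courses, 1 point per sample; the thick black line is RA and the thick dashed grey line the empty vector. Pfn2 is far above every other course in RA (6873 on day 6, against 384 in the empty vector), Gsn climbs late in Nanog shRNA cells (8474 on day 6), Fhl1 starts high in Oct4 shRNA cells (2330 on day 0), and Tpm1 jumps between day 4 and day 5 in Mm343880 shRNA cells (1446 and 8418).

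Non-muscle myosin II is the motor that pulls filaments together, and its 2 heavy chains followed different courses. Myh9, the heavy chain of myosin IIA, had 8129, 6757 and 9319 in Tbx3 shRNA cells and 9226, 7067 and 5886 in RA cells, against 2755, 3035 and 3277 in empty vector cells (log2 1.33, SE 0.16, adjusted p = 5.2e-08 and log2 1.25, SE 0.16, adjusted p = 4.4e-09). It passed in all the other knockdown courses as well, between 0.73 (Sox2) and 1.17 (Esrrb) on the log2 scale, with no sample overlapping; the Mm343880 value without day 6 was log2 1.12, adjusted p = 0.065. Myh10, the heavy chain of myosin IIB, had 12207, 12981 and 11068 in RA cells, against 1829, 1541 and 1423 in empty vector cells, a 7.97-fold difference without overlap (log2 2.99, SE 0.20, adjusted p = 4.8e-17). Among knockdowns it was highest in Sox2 shRNA cells, 3364, 3307 and 4695 (log2 1.25, SE 0.20, adjusted p = 2.6e-06), and in Tbx3 shRNA cells it was 1646, 1490 and 1183 (log2 -0.07, adjusted p = 0.88). Its smaller rises in the Esrrb and Oct4 courses, 0.61 and 0.59, were lost without day 5 (log2 0.56, adjusted p = 0.27 and log2 0.51, adjusted p = 0.26). Both were also lost without day 3 or day 6, and the Esrrb one without day 2.

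Myl9, a regulatory light chain of myosin II whose promoter holds a CArG box, had 3031, 2726 and 2605 in Tcl1 shRNA cells, against 823, 836 and 342 in empty vector cells (log2 1.99, SE 0.24, adjusted p = 1.3e-07). Mm343880 shRNA cells had 1925, 3223 and 3037 (log2 1.95, SE 0.24, adjusted p = 9.2e-08) and RA cells 5393, 3365 and 2803 (log2 2.50, SE 0.24, adjusted p = 3.9e-12). All of these samples were above the empty vector samples, whose day 6 value was the lowest. Myl9 also rose in the Esrrb, Sox2 and Tbx3 courses (log2 1.66, 1.34 and 1.0; Tbx3 without day 6, log2 0.76, adjusted p = 0.076). In Nanog and Oct4 shRNA cells it was 1622, 760 and 524 and 553, 619 and 451, overlapping the empty vector (adjusted p = 0.32 and 0.42). Myl6, an essential light chain that also holds a box, passed in no course: its probe set was dim, at 334, 542 and 297 in empty vector cells, with differences between -0.53 (Tbx3) and 0.21 (Sox2).

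Adhesion proteins came next. Zyx, zyxin, a LIM protein of strained adhesions, had 2363, 3332 and 2287 in Sox2 shRNA cells and 2762, 2368 and 2446 in RA cells, against 598, 884 and 654 in empty vector cells (log2 1.81, SE 0.18, adjusted p = 1.4e-10 and log2 1.77, SE 0.18, adjusted p = 4.4e-11). It passed in the other 6 courses between 0.79 (Tbx3) and 1.38 (Esrrb), the Mm343880 value being log2 1.18, adjusted p = 0.062 without day 6. Vcl, vinculin, which links talin to actin and has a box in its promoter, was 4494, 4468 and 3875 in Esrrb shRNA cells and 6870, 3909 and 3686 in RA cells, against 1732, 1610 and 1674 in empty vector cells (log2 1.34, SE 0.20, adjusted p = 1.7e-06 and log2 1.45, SE 0.20, adjusted p = 3.2e-08). In Mm343880 shRNA cells it was 1655, 4472 and 2758, with day 4 at the empty vector level (log2 0.79, SE 0.20, adjusted p = 0.0043). Without day 5 that difference was log2 0.40, adjusted p = 0.39. The Tbx3 and Tcl1 calls were also lost without day 5 (log2 0.44, adjusted p = 0.36 and log2 0.61, adjusted p = 0.16). The RA call was lost without day 6 (log2 0.84, adjusted p = 0.11). Nanog and Oct4 shRNA cells had 1829, 2060 and 3210 and 1579, 1643 and 1321, neither past the threshold (adjusted p = 0.11 and 0.78).

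Tln1, talin, the integrin activator, rose in RA, Sox2, Nanog, Oct4 and Esrrb courses, from 1.24 in RA to 0.68 in Esrrb, and in the Tcl1, Mm343880 and Tbx3 courses its differences of 0.41, 0.40 and 0.29 did not pass. Without day 5 the Oct4 and Esrrb values were log2 0.58, adjusted p = 0.051 and log2 0.44, adjusted p = 0.21. Flna, filamin A, a cross-linker of filaments, was 2435, 999 and 1532 in Nanog shRNA cells, against 2963, 2409 and 3306 in empty vector cells, and fell (log2 -0.84, SE 0.19, adjusted p = 0.00061), although its day 4 sample was within the empty vector range. Without day 5 the difference was log2 -0.63, adjusted p = 0.051. In Esrrb shRNA cells Flna was 5277, 4421 and 4271 and in RA cells 5413, 4922 and 4631, all above the empty vector samples (log2 0.68, SE 0.19, adjusted p = 0.0086 and log2 0.87, SE 0.19, adjusted p = 0.00011). Leaving out a day ended both calls (log2 0.55, adjusted p = 0.15 without day 5 in Esrrb, log2 0.37, adjusted p = 0.55 without day 6 in RA) and the Mm343880 rise of 0.59 (log2 0.36, adjusted p = 0.39 without day 5). The Mm343880 rise was lost without day 2 or day 6 as well.

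The alpha-actinins, also cross-linkers, were 8718, 9029 and 9297 for Actn1 and 11092, 13269 and 13617 for Actn4 in Sox2 shRNA cells, against 5238, 5311 and 4378 and 10191, 10518 and 8436 in empty vector cells (log2 0.83, SE 0.15, adjusted p = 2.3e-05 and log2 0.38, SE 0.12, adjusted p = 0.014). Actn1 rose also in Esrrb shRNA cells, at 6956, 9415 and 8640 (log2 0.75, SE 0.15, adjusted p = 0.00025), without overlap. Actn4 fell in RA cells, at 7004, 6451 and 6342 (log2 -0.49, SE 0.12, adjusted p = 0.0006), below every empty vector sample, and rose by 0.40 in the Mm343880 course. Without day 5 none of the Actn4 calls held (log2 0.42, adjusted p = 0.075 in Sox2, log2 -0.37, adjusted p = 0.065 in RA and log2 0.45, adjusted p = 0.093 in Mm343880).

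Among the proteins that cut or cap filaments, Gsn, gelsolin, was the member with the largest late rise in the Nanog, Oct4 and Sox2 courses. Its signals were 6182, 5142 and 4595 in Sox2 shRNA cells, against 124, 123 and 460 in empty vector cells, 20.9-fold (log2 4.39, SE 0.31, adjusted p = 5.5e-15). Oct4 shRNA cells had 2279, 1996 and 2562 (log2 3.20, SE 0.31, adjusted p = 7.1e-11) and RA cells 2950, 5086 and 5339 (log2 4.11, SE 0.31, adjusted p = 4.2e-15). In all 3 of these courses each sample was above each empty vector sample.

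Gsn in Nanog shRNA cells was 1239, 1310 and 8474, with day 6 far above the days before it, and 10552 on day 7 (log2 3.27, SE 0.31, adjusted p = 4.4e-11). Esrrb shRNA cells had 1118, 2088 and 2627 (log2 2.86, SE 0.31, adjusted p = 2.2e-09). Tbx3 shRNA cells had 132, 823 and 1633, Tcl1 shRNA cells 472, 1100 and 487 and Mm343880 shRNA cells 249, 736 and 1097, with log2 differences of 1.39, 1.56 and 1.43 that passed. Those 3 were lost without day 5 (log2 0.88, adjusted p = 0.18, log2 0.94, adjusted p = 0.15 and log2 1.04, adjusted p = 0.083), and the low days of the Tbx3 and Mm343880 courses overlapped the day 6 empty vector sample, at 460 the highest of the 3. Over the whole empty vector course Gsn went from 54.8 on day 0 to 540 on day 7.

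Capg, a gelsolin relative that caps filament ends, took opposite directions. In RA cells it was 268, 280 and 287, below the 873, 1030 and 1615 of empty vector cells, 3.57-fold lower (log2 -1.83, SE 0.17, adjusted p = 3.9e-12). In Sox2 shRNA cells it was 3150, 2877 and 2014 (log2 1.15, SE 0.17, adjusted p = 1.3e-06) and in Oct4 shRNA cells 2277, 1988 and 1951 (log2 0.81, SE 0.17, adjusted p = 0.0005), above every empty vector sample. It rose also in Nanog and Esrrb shRNA cells (0.99 and 0.71; Esrrb without day 4, log2 0.56, adjusted p = 0.061), and in Tcl1 and Tbx3 shRNA cells the differences were 0.00 and -0.03.

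The cofilins, which sever aged filaments, and the profilins, which feed monomer to growing ends, parted by paralog in RA cells. Cfl2 was 6242, 5774 and 6275 in RA cells, against 818, 1070 and 879 in empty vector cells (log2 2.61, SE 0.15, adjusted p = 4.3e-19), while Cfl1 was 12812, 11562 and 10532 in RA cells, against 14090, 13368 and 11880 (log2 -0.16, adjusted p = 0.16). Pfn2 was 5352, 6340 and 6873 in RA cells, against 442, 285 and 384 in empty vector cells, 14.5-fold and without overlap (log2 3.86, SE 0.16, adjusted p = 1.6e-23). Pfn1, in contrast, fell to 10521, 9492 and 9615 in RA cells, against 14968, 15903 and 13423 in empty vector cells (log2 -0.59, SE 0.10, adjusted p = 1.3e-06), below each of them. Pfn2 climbed on each day of the RA course, from 721 on day 0 to 6873 on day 6.

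In the knockdown courses these 4 genes moved less. Cfl2 rose in 6 of them, from 0.45 in Oct4 to 1.26 in Sox2, with 2122, 2145 and 2987 in Sox2 shRNA cells, and in Tcl1 shRNA cells it was 0.08 (adjusted p = 0.81); the Oct4 value was log2 0.31, adjusted p = 0.27 without day 4. Pfn2 rose in Tbx3 shRNA cells, at 908, 982 and 874 (log2 1.23, SE 0.16, adjusted p = 4.6e-07), and by 0.89 and 0.72 in the Sox2 and Esrrb courses. Cfl1 rose in Mm343880 shRNA cells, at 19321, 19822 and 19658 (log2 0.60, SE 0.09, adjusted p = 9.7e-06; without day 6, log2 0.39, adjusted p = 0.27), and in the Tcl1 course by 0.31 (without day 5, log2 0.34, adjusted p = 0.14). The Tcl1 call was also lost without day 4 or day 6. Pfn1 did not pass in any knockdown course, with differences of -0.05 to 0.19.

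The thymosins beta bind free monomer. Tmsb4x was 12946, 19934 and 18756 in Mm343880 shRNA cells, against 8318, 8054 and 5400 in empty vector cells (log2 1.25, SE 0.19, adjusted p = 6.5e-06), without overlap. It rose in the RA, Esrrb, Sox2 and Tcl1 courses by 1.0, 0.95, 0.78 and 0.67, but without day 6 the RA value was log2 0.14, adjusted p = 0.81 and without day 5 the Tcl1 value was log2 0.61, adjusted p = 0.2. The RA samples of Tmsb4x on days 4 and 5, at 14544 and 13245, were above the empty vector samples. Tmsb10 passed in 2 courses. It was 47048, 35874 and 42609 in Mm343880 shRNA cells, against 26310, 24471 and 31198 in empty vector cells (log2 0.63, SE 0.13, adjusted p = 0.00042; without day 6, log2 0.16, adjusted p = 0.81), and 22534, 19468 and 20082 in RA cells (log2 -0.38, SE 0.13, adjusted p = 0.01), where quantile normalization turned the sign to 0.31 and leaving out day 6 ended the call (log2 -0.46, adjusted p = 0.17).

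Ezr, Msn and Rdx encode ezrin, moesin and radixin, which tie filaments to the plasma membrane. Ezr fell in Sox2 shRNA cells, at 2277, 2371 and 2727, against 3877, 3082 and 3428 in empty vector cells (log2 -0.51, SE 0.14, adjusted p = 0.0066), and in RA cells, at 2926, 2623 and 2179 (log2 -0.44, SE 0.14, adjusted p = 0.01). In both courses all samples were below the empty vector samples, and in Tbx3 shRNA cells Ezr was 4451, 4365 and 5197, all above them (log2 0.43, SE 0.14, adjusted p = 0.044). Each Ezr call was lost in some leave-out: Sox2 without day 4 (log2 -0.46, adjusted p = 0.054) and RA without day 4 (adjusted p = 0.058) or day 6 (log2 -0.41, adjusted p = 0.37). The Tbx3 call was lost without any 1 of days 1 to 6 (adjusted p of 0.055 to 0.25, with log2 0.36 without day 5).

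Msn was 4432, 3949 and 3783 in Esrrb shRNA cells and 4264, 3267 and 3354 in Sox2 shRNA cells, against 2133, 2080 and 2010 in empty vector cells (log2 0.89, SE 0.17, adjusted p = 0.00017 and log2 0.76, SE 0.17, adjusted p = 0.00059), all above them. Its rise in RA cells, at 2675, 2952 and 2635, was 0.44 and was lost without day 6 (log2 0.09, adjusted p = 0.9). Leaving out day 3 or day 5 ended that call as well. Rdx was 4291, 3453 and 3902 in RA cells, against 1508, 1585 and 1168 in empty vector cells (log2 1.33, SE 0.20, adjusted p = 3.6e-07), and 2346, 2807 and 2768 in Nanog shRNA cells (log2 0.88, SE 0.20, adjusted p = 0.001), both without overlap. Smaller Rdx rises of 0.60 in Tbx3 and 0.60 in Mm343880 shRNA cells were lost without day 5 (log2 0.63, adjusted p = 0.27 and log2 0.64, adjusted p = 0.23). The Tbx3 one was also lost without day 2, 3, 4 or 6, and the Mm343880 one without day 3 or 6. In the Sox2 course, where Ezr fell and Msn rose, Rdx was 1523, 1780 and 2800 (adjusted p = 0.11).

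The LIM domain proteins sit at adhesions and along filaments, and some act in the nucleus. Pdlim7 rose to 3097, 2796 and 3194 in RA cells and 3477, 3074 and 2110 in Sox2 shRNA cells, against 736, 862 and 940 in empty vector cells (log2 1.82, SE 0.17, adjusted p = 4e-12 and log2 1.68, SE 0.17, adjusted p = 2.2e-10), without overlap. It passed in the remaining courses between 0.64 (Tbx3; without day 5, log2 0.51, adjusted p = 0.2) and 1.21 (Esrrb). Pdlim1 went the other way in RA cells, at 3921, 2095 and 1633, against 5030, 4021 and 4293 in empty vector cells (log2 -0.85, SE 0.13, adjusted p = 4e-07), all below them. It rose in Nanog shRNA cells, at 7874, 5746 and 7254 (log2 0.61, SE 0.13, adjusted p = 0.00044), and its rises of 0.47 in Sox2 and 0.40 in Oct4 were lost without day 5 (log2 0.35, adjusted p = 0.19 and log2 0.23, adjusted p = 0.46).

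Fhl2, a LIM cofactor that also binds SRF and whose promoter holds a box, was 609, 730 and 437 in Oct4 shRNA cells, against 75.8, 131 and 196 in empty vector cells (log2 1.64, SE 0.33, adjusted p = 0.00023). Sox2 shRNA cells had 572, 852 and 854 (log2 2.01, SE 0.33, adjusted p = 6.7e-06) and Nanog shRNA cells 463, 621 and 1371 (log2 1.88, SE 0.33, adjusted p = 2.8e-05). All samples of these courses lay above the 3 empty vector samples. It rose in the Esrrb, RA and Tcl1 courses by 1.77, 1.61 and 1.48, and in the Mm343880 and Tbx3 courses by 1.28 and 1.26. The last 2 calls were lost without day 5 (log2 0.60, adjusted p = 0.47 and log2 1.09, adjusted p = 0.15) and the RA call without day 6 (log2 1.5, adjusted p = 0.08); in the Mm343880 course the day 4 sample was 94.9.

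Fhl1, its paralog, stood apart in 2 courses. In Sox2 shRNA cells, where Fhl2 rose, Fhl1 was 812, 657 and 943, against 744, 724 and 881 in empty vector cells, overlapping them (log2 0.05, adjusted p = 0.9). In Oct4 shRNA cells Fhl1 was already 2330 and 2894 on days 0 and 1, against 712 and 509 in empty vector cells, an early difference of 1.97 (adjusted p = 9.8e-08), and it was 3293, 2109 and 1900 late (log2 1.5, SE 0.19, adjusted p = 9.6e-08). Nanog shRNA cells had 3102, 3023 and 1449 (log2 1.59, SE 0.19, adjusted p = 2.9e-08), Tbx3 shRNA cells 1561, 2702 and 3182 (log2 1.54, SE 0.19, adjusted p = 2.9e-07) and Esrrb shRNA cells 1481, 2973 and 2882 (log2 1.54, SE 0.19, adjusted p = 8.5e-08). All of these were above the empty vector samples. The rises in the Mm343880 and RA courses, 0.85 and 1.07, were lost without day 5 (log2 0.59, adjusted p = 0.16) and without day 6 (log2 0.28, adjusted p = 0.65).

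Lasp1, an actin-binding LIM and SH3 protein, fell in Tbx3 shRNA cells, at 1826, 1897 and 2520, against 3405, 3854 and 3618 in empty vector cells (log2 -0.85, SE 0.12, adjusted p = 4.8e-06). All 3 samples were below the empty vector samples, and the early difference was already -1.32 (adjusted p = 3.1e-07). In Sox2 shRNA cells Lasp1 was 5089, 5192 and 5059 (log2 0.48, SE 0.12, adjusted p = 0.003), above them, and the other late differences, -0.18 to 0.31, did not pass. Of the 8 other Lasp1 probe sets, 5 passed lower in the Tbx3 course, with log2 differences of -0.76 to -1.04, and 3 did not pass.

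Srf, the transcription factor, did not pass in any knockdown course, with late differences of -0.19 (Nanog) to 0.14 (Tcl1). Its signals were 964, 1222 and 861 in Sox2 shRNA cells and 1106, 1303 and 1256 in Esrrb shRNA cells, against 1184, 1303 and 933 in empty vector cells, and they overlapped. In RA cells Srf fell to 573, 515 and 572, below every empty vector sample (log2 -0.95, SE 0.15, adjusted p = 8e-07), yet a second Srf probe set passed the other way there (log2 0.47, adjusted p = 0.032). The direction of Srf in RA is therefore unsettled in these data.

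Lmna, the nuclear lamin A/C gene, and Vim, vimentin of the intermediate filaments, are not actin regulators themselves. Lmna was 2910, 2891 and 1970 in Sox2 shRNA cells, against 802, 627 and 855 in empty vector cells (log2 1.75, SE 0.19, adjusted p = 8e-10), without overlap. It rose in the Esrrb, Oct4, Nanog and Mm343880 courses too (1.05, 0.98, 0.90 and 0.81), where the last 2 were lost without day 5 (log2 0.58, adjusted p = 0.13 and log2 0.69, adjusted p = 0.11), and it fell in RA cells, at 396, 390 and 460 (log2 -0.68, SE 0.19, adjusted p = 0.0024), below each empty vector sample.

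Vim fell in Nanog shRNA cells, at 6791, 3612 and 2484, against 7642, 8913 and 6567 in empty vector cells (log2 -0.98, SE 0.18, adjusted p = 6.3e-05). Its day 4 sample was within the empty vector range and the next 2 were below it, and 2 further Vim probe sets were lower as well (log2 -1.01 and -1.21, both passing). Vim rose to 18060, 16499 and 14728 in Esrrb shRNA cells (log2 1.08, SE 0.18, adjusted p = 2.2e-05) and 24693, 19575 and 17721 in RA cells (log2 1.40, SE 0.18, adjusted p = 1e-08), above the empty vector samples, the RA call being lost without day 6 (log2 0.79, adjusted p = 0.081). In Sox2 shRNA cells Vim was 12209, 11680 and 11008 (log2 0.58, SE 0.18, adjusted p = 0.014), after 3538 on day 0, against 8397 in the empty vector on that day.

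**Figure D4:**
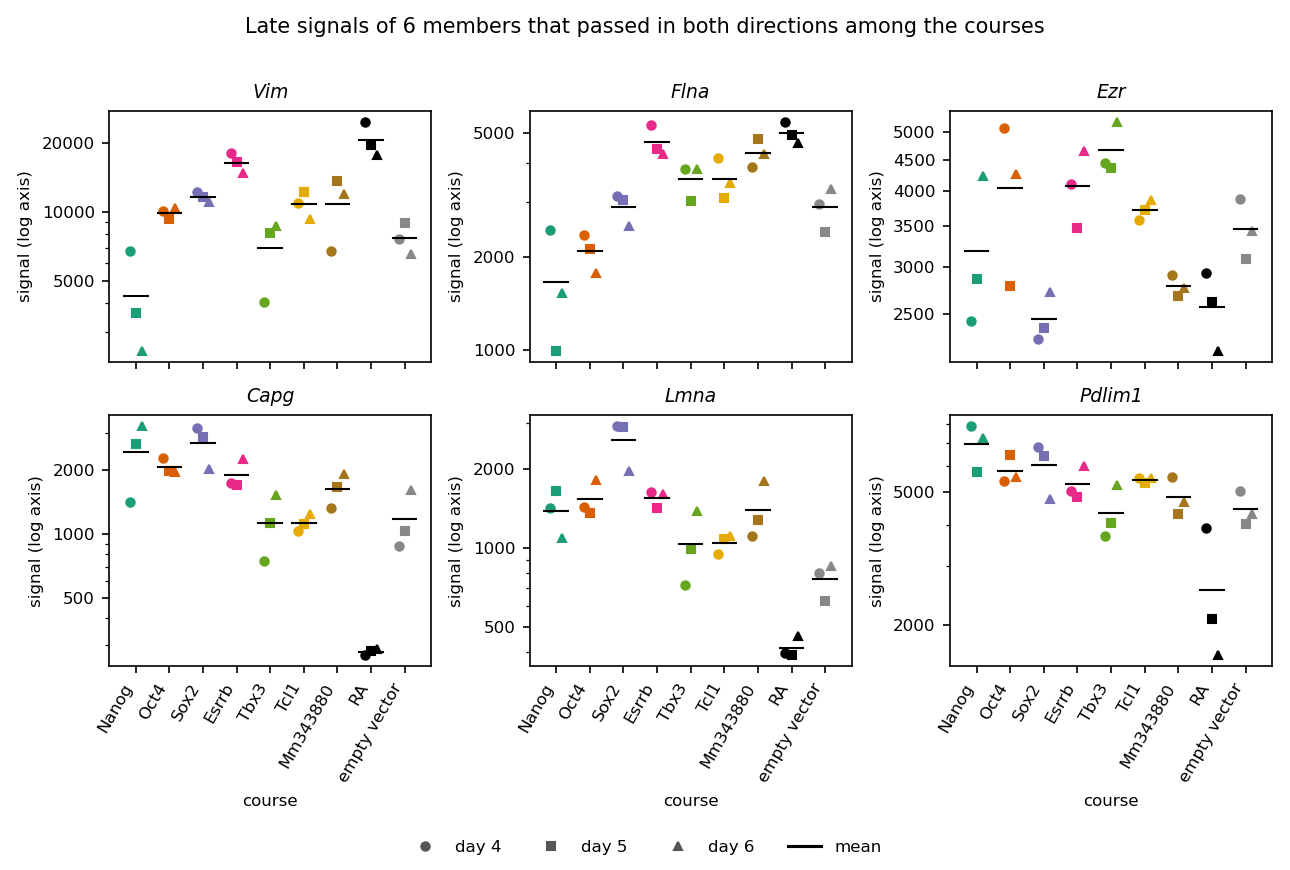
Signals (log axis) on days 4 (circles), 5 (squares) and 6 (triangles) of Vim, Flna, Ezr, Capg, Lmna and Pdlim1 in the 9 courses, with the mean as a line; courses are coloured. Vim is lowest in Nanog shRNA cells (2484 on day 6) and highest in RA cells (24693 on day 4), and Capg, Lmna and Pdlim1 are lowest in RA cells (Capg 268 to 287).

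**Figure D5:**
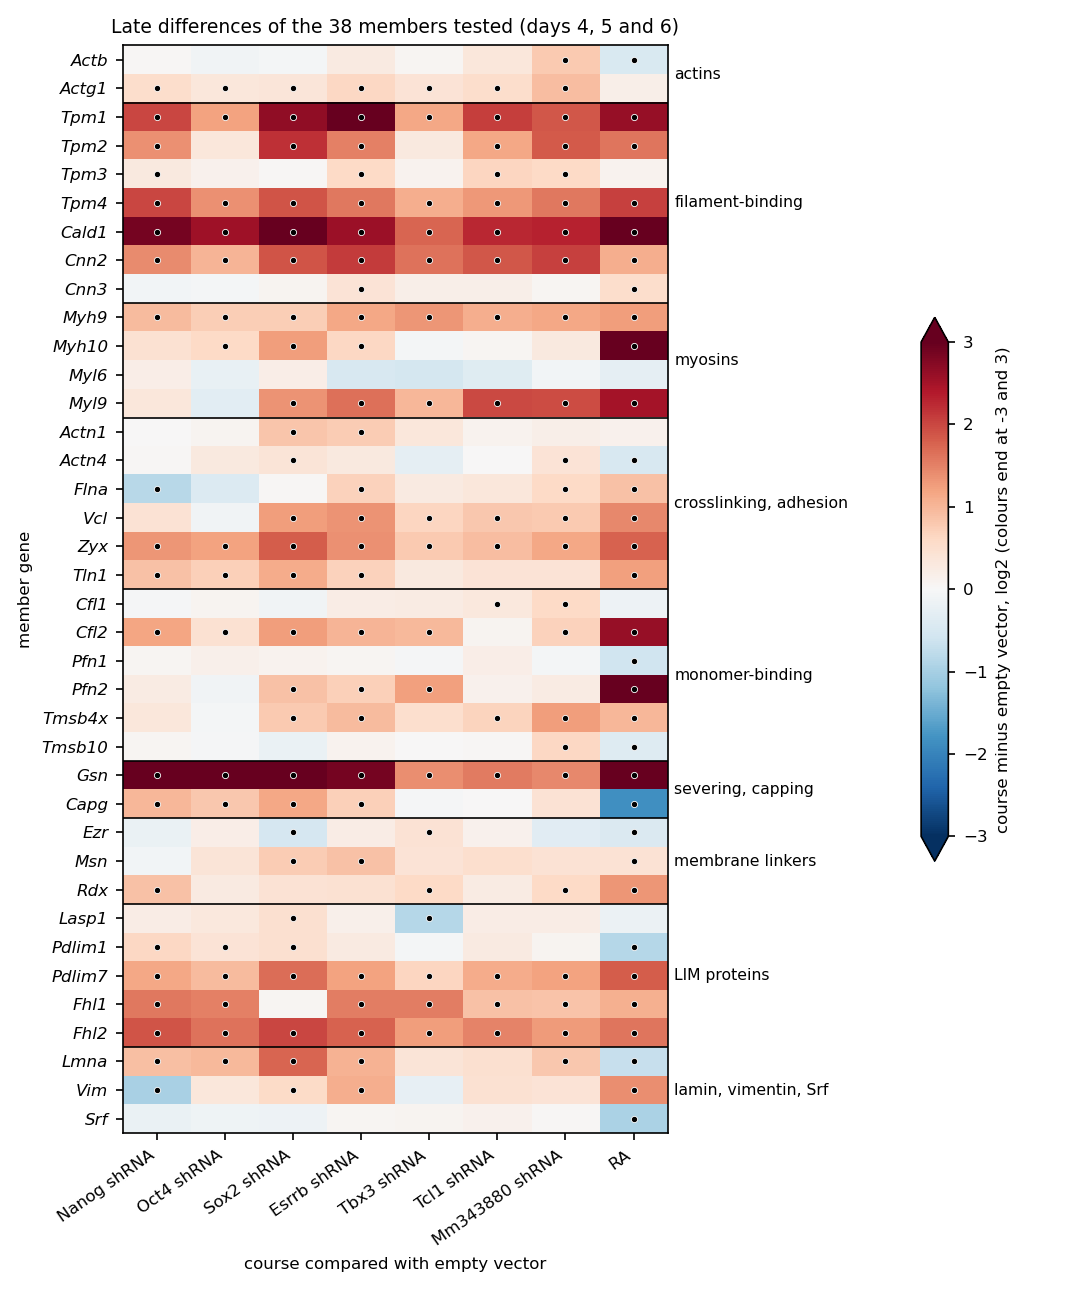
Log2 late difference from the empty vector of the 38 members, grouped by role, in the 8 courses; red is higher, blue lower, and a dot marks an adjusted p under 0.05. Cald1, Tpm1, Tpm4, Gsn and Fhl2 carry dots in red across the row, and the blue dots lie mainly in the RA column, where those of Actb and Tmsb10 turn to positive values (0.21 and 0.31) under quantile normalization.

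Courses were also set directly against each other on days 4 to 6. Esrrb shRNA cells had 13 members higher and 1 lower than Nanog shRNA cells (8.72% and 9.42% of all genes), led by Vim (2.05), Flna (1.52) and Myl9 (1.31), with Myl6 (-0.68) the lower one. Against Oct4 shRNA cells 16 were higher and none lower (11.1% and 4.93%), led by Myl9 (1.98), Tpm1 (1.86) and Vcl (1.45). Against Tbx3 shRNA cells 11 were higher and none lower (1.92% and 0.783%), led by Tpm1 (1.91), Gsn (1.46) and Vim (1.33). Against Sox2 shRNA cells the members split, 8 higher and 5 lower (8.43% and 6.86%): Fhl1 (1.5) and Ezr (0.73) were higher and Gsn (-1.53), Cald1 (-0.88) and Lmna (-0.70) lower in Esrrb shRNA cells.

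Sox2 shRNA cells had 13 members higher and 2 lower than Nanog shRNA cells (5.03% and 5.91% of all genes), among them Vim (1.56) and Gsn (1.12), with Fhl1 (-1.54) lower. Against Oct4 shRNA cells 14 were higher and 2 lower (5.21% and 2.68%), among them Tpm2 (1.86) and Myl9 (1.66), with Fhl1 (-1.46) and Ezr (-0.72) lower. In a comparison added after the data were seen, RA cells had 16 members higher and 14 lower than the mean of the 7 knockdown courses (30.5% and 24.3%). The higher ones were led by Pfn2 (3.38), Myh10 (2.54) and Cfl2 (1.80), and the lower ones by Capg (-2.41), Lmna (-1.59) and Pdlim1 (-1.14). Without day 5 the members that passed in either direction numbered 7 for Esrrb against Nanog (14 with all days), 10 for Esrrb against Oct4 (16), 5 for Esrrb against Tbx3 (11), 5 for Sox2 against Nanog (15) and 8 for Sox2 against Oct4 (16). Esrrb against Sox2 had 13 with all days and 7 to 8 without day 4, 5 or 6, and RA against the knockdown mean had 30 and, without day 6, 14.

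Other genes of the same machinery were read from lists. Of 5 Arp2/3 subunits with a tested probe set, which nucleate branched filaments, 2 or 3 rose in each course, led by Arpc5 and Arpc2 (1.56 and 1.04 in RA), and Arpc4 fell in RA cells (-0.55). Of 10 focal adhesion partners, 7 rose in RA, 6 in Nanog and Sox2, 4 in Oct4, 3 in Esrrb and Mm343880 and 2 in Tbx3 and Tcl1, and 1 fell in Mm343880. Ilk, a scaffold kinase at integrins, rose by 1.97 in Sox2 and 1.36 in Nanog shRNA cells, and Itgav, the integrin alpha V chain, by 2.56 in RA cells.

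Contractile and smooth muscle genes, many of them SRF targets in muscle, had 9 of 11 higher in Sox2, 8 in Esrrb, 7 in Tcl1, 6 in Mm343880, 5 in Tbx3 and RA and 4 in Nanog and Oct4 shRNA cells, and 2 lower in RA and 1 each in Sox2 and Nanog. Acta1, skeletal muscle actin, had a mean late signal of 9395 in Sox2 shRNA cells and 370 in empty vector cells (log2 4.43), and in RA cells its difference was 0.47 (adjusted p = 0.31). Cnn1, the smooth muscle calponin, rose by 3.35 in Mm343880 shRNA cells, with means of 1349 there and 60.6 in empty vector cells. Of 10 YAP and TEAD genes, a transcription system that also reads filament tension, 9 rose in Sox2, 8 in Esrrb, 7 in Mm343880 and 6 in each of the remaining courses, with Ccn1 at 2.29 in Esrrb and Axl at 2.89 in RA cells. Tead2 fell in Sox2 and Nanog shRNA cells (-0.55 and -0.78) and Tead4 in RA cells (-0.96).

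The SRF cofactors and the quick SRF targets moved less uniformly. Of 5 cofactor genes tested, 3 rose in Sox2 and 2 in Nanog shRNA cells, 2 rose and 2 fell in RA cells and none passed in the other 5 courses. Mrtfb rose by 1.18 in Sox2, 0.86 in Nanog and 1.81 in RA cells. Of 10 immediate early genes, which SRF switches on within minutes of a stimulus, 5 fell and none rose in RA cells, among them Junb (-1.96), Ier2 (-1.93) and Nr4a1 (-1.91). In the knockdown courses at most 2 rose and at most 3 fell, and none passed in Tbx3 and Tcl1, with Fos at 1.60 in Sox2 shRNA cells. The shares of all genes given above for each course are the background for these counts, and no list was tested as a set.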

How the data were processed

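The 70 RNA samples were hybridised to Affymetrix MOE430A and MOE430B arrays, and per the submitters' processing notes the authors made the values with MAS5 (the notes name no version). As deposited they are linear signal intensities, scaled so that the trimmed mean of the 100 control probe sets that both arrays carry is 2500 on each array. Of 45265 probe sets, 35041 name 1 gene, 936 several, 9160 none and 128 are controls. Here each gene took its single-gene probe set with the highest mean signal. Values were log2(signal + the table's 20th percentile, 63.1 on MOE430A and 21.8 on MOE430B), so fold changes of dim genes are understated. Probe sets above the table median (283.3 and 89.2) on at least 3 of 70 arrays were kept.

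limma 3.58.1 in R 4.3.3 fitted a natural spline with 3 degrees of freedom per course over all samples, and late (days 4, 5, 6) and early (days 0, 1) means were compared. Empirical Bayes p-values were adjusted by Benjamini-Hochberg over all 14558 genes of both tables, with a threshold of 0.05. The procedure was tested on simulated data. The text names, per late difference, up to 8 members with the largest passing rise and up to 6 with the largest fall, paralog pairs, and members that never passed; signals by day are given for the 3 largest. The members and lists were chosen with earlier results of these data known. The alternatives included another normalization, another probe set rule and each day left out. Promoters are RefSeq's. The Dppa4 course named in the study's design was not analysed here. The number of arrays limits precision.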

Additional observations from a re-analysis of the deposited data

Results flagged for a closer look

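The median distance of the 38 members from their fitted curves was 0.10 (log2) in the Esrrb shRNA sample of day 3, farther from the other 7 samples of that course than Dixon's limit allows; chance alone marks about 1 in 20 groups, and 9 courses were looked at. That sample also had the highest MOE430A array median of its course, 317, and its median over all genes was 0.20 above the empty vector of day 3. The part of this in the distance was not tested.

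Some late minus early differences were picked out because the samples of days 0 and 1 lay on the opposite side of the empty vector from those of days 4, 5 and 6, with a passing limma interaction (adjusted p under 0.05). In the Nanog course the interaction was 1.81 for Tpm2, 2.26 for Tpm4, 1.53 for Capg and 1.22 for Lmna, all from below the empty vector early to above it late. In the Sox2 course it was 1.15 for Tmsb4x and 1.43 for Vim, in the Esrrb course 1.43 for Tmsb4x and 2.99 for Gsn, and in the Mm343880 course 1.35 for Zyx and 1.58 for Pdlim7, in the same direction. In RA cells Ezr went the other way, with -0.69. The day 0 empty vector sample enters each of these values.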

How the results depend on the processing

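Of 183 late differences of members that passed against the empty vector, 107 passed under every alternative run. A pseudocount of 1 kept 183 of them past the threshold, a curve with 2 degrees of freedom 181, quantile normalization 173, no spline, with the day that courses share as a block, 163 and the mean of all probe sets 157. The signs that turned were those of Actb (0.21) and Tmsb10 (0.31) in RA against the empty vector under quantile normalization. Against the knockdown mean, RA values that turned under it were Actb 0.07, Actg1 0.37, Tpm3 0.07, Cfl1 0.08 and Tmsb10 0.25, and with the mean of probe sets Actb was 0.02 there and -0.02 in Esrrb against Oct4. With each day left out, the change within RA was -0.65 to 0.06 for Actn4, -0.46 to 0.04 for Cfl1 (both positive without day 0) and -0.08 (without day 6) to 1.89 for Tmsb4x, and Tmsb4x against the knockdown mean was -0.40 (without day 6) to 0.62. Counts of members that passed moved by over 1.5 times within the empty vector course (0, and 1 with 2 degrees of freedom and 1 with no spline), within Oct4 (12, and 7 with no spline), Tbx3 (12, and 7 after quantile normalization) and Tcl1 (11, and 5 with no spline), and for Esrrb against Tbx3 (11, and 19 with 2 degrees of freedom and 5 with no spline). With each day left out in turn, the late counts were 20 to 21 in Nanog, 13 to 18 in Oct4, 24 to 28 in Sox2, 24 to 27 in Esrrb, 10 to 19 in Tbx3, 12 to 18 in Tcl1, 15 to 26 in Mm343880 and 19 to 32 in RA. Within a course they were 0 to 2 in the empty vector (2 without day 5), 7 to 20 in Nanog, 2 to 12 in Oct4, 9 to 19 in Sox2, 10 to 21 in Esrrb, 3 to 13 in Tbx3, 3 to 10 in Tcl1, 9 to 24 in Mm343880 and 8 to 25 in RA. For Esrrb they were 7 to 14 against Nanog, 10 to 17 against Oct4, 7 to 12 against Sox2 and 5 to 11 against Tbx3, for Sox2 5 to 15 against Nanog and 8 to 17 against Oct4, and for RA 14 to 32 against the knockdown mean. Leaving out a late day leaves fewer samples in that mean; no other cause was tested. The labels give no replicate numbers; samples were paired across courses by day, in the fit with the day as a block. Signals were low in empty vector cells for Gsn (54.8 to 540), Fhl2 (58.0 to 318), Myl6 (273 to 542) and Vil1 (5.30 to 81.8), which limits their precision.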

Other observations

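The members had 60 further probe sets that passed the filter and were fitted in the same way, an alternative added after the data were seen. In 285 combinations of such a probe set with a late difference in which the gene's brightest probe set had passed, 256 had the same sign and 160 also passed. In 3 the second probe set passed with the opposite sign, all in RA against the empty vector: Actb (0.42, against -0.46 for the brightest probe set), Tpm2 (-0.55, against 1.61) and Srf (0.47, against -0.95).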
